A study of Polistes fuscatus with 17 samples.

Results

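The 100 most abundant RNAs of the wasp brain libraries are described here, chosen as the 100 assembled transcripts (contigs) with the highest mean level over all 17 wasps, out of 157691 contigs counted. The level is given in CPM, the count of a contig divided by the wasp's total count and multiplied by 1000000. The mean CPM of each contig over all wasps chose the members, so their being abundant is how they were found and not a result, and how far they vary between wasps and groups is what the values below add.

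The samples were single brains of adult female Polistes fuscatus, a paper wasp whose members have individually variable faces. RNA of each brain was extracted separately, so each library is 1 animal. All wasps came from Ann Arbor, were trained in a maze with negative reinforcement over 40 consecutive trials in 2012, and were killed 30 minutes after the last trial. The study compared the stimulus that foundresses learned and the species of the nest on which workers lived.

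Foundresses, the females that start nests in spring, formed 2 groups: 5 trained to discriminate P. fuscatus faces (F25, F29, F35, F42 and F55, all labelled May) and 4 trained to discriminate simple patterns (F17 and F3, labelled May, and F34 and F52, labelled June). Workers, the daughters that help on the nest, formed the other 2 groups, all trained to faces: 4 had lived for at least a week on a nest of another species, Polistes metricus (allospecific, FW11 and FW24 in July, FW32 and FW44 in August), and 4 on a nest of P. fuscatus that was not the one they were born in (conspecific, FW10, FW25 and FW28 in July, FW47 in August). Foundresses and workers share no month, and no worker was trained to patterns, so caste, season, age and rearing cannot be told apart in any comparison of foundresses with workers, and for pattern-trained foundresses the stimulus is added to these. The nest from which each wasp came is not in the labels used here.

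Social wasps of this species recognise individual wasps by their faces, and females of a colony differ in whether they mainly reproduce or mainly forage and care for brood. In the libraries of most tissues a small number of RNAs takes a large share of the reads, commonly transcripts of mitochondria, ribosomal proteins and housekeeping enzymes, together with products that mark the tissue. A change in 1 very abundant RNA also changes the share left to all others, which is why the share of each library comes first below. None of the contig identifiers matched an entry of the gene table used here (0 matches in 13634 entries), so no contig is given a gene name, a role or a sequence, and the brain label could not be checked against marker genes. In a whole brain, fewer cells that make an RNA and less RNA per cell cannot be told apart. CPM is not divided by contig length, which the table does not give, so values are compared between wasps for 1 contig and the order of contigs partly follows their length.

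Totals ranged between 7694420 counts in F3 and 20360420 in F29, and the second lowest was 14118986 in F25. The lowest count of any abundant contig in any wasp was 1611, where counting error alone is 2.49% of the value. All 100 passed the filter on low counts, which kept 61002 contigs holding 99.4% of the counts. 3 libraries are left out in turn below, a choice made after their values were seen. They are F17, a pattern-trained foundress, FW28, a worker of a conspecific nest, and F55, a face-trained foundress. F55 was flagged in no set of the closing section. In the share of the 100 contigs F34 was above F17 (26.2 against 24.9%), and shares without F34 are not given. The median absolute deviation of the 100 contigs from their medians over all 17 wasps, on the log2 scale, was 0.69 in F17. It lay between 0.15 and 0.36 in the other 16 wasps. This measure includes differences between the groups. F17 also held either the lowest or the highest level of the 17 wasps for 46 of the 100 contigs. The main shares and counts of calls are given with and without F17, FW28 or F55, whichever was in that group.

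The 100 contigs, 0.0634% of the table, held on average 17.3% of the counts of a library, and this share was higher and more variable among foundresses. It was 16.7, 22.1, 20.3, 23.6 and 13.9% in the face-trained foundresses F25, F29, F35, F42 and F55, and 24.9, 15.5, 26.2 and 16.6% in the pattern-trained foundresses F17, F3, F34 and F52. Workers of allospecific nests had 14.6, 14.8, 15.1 and 13.6% (FW11, FW24, FW32 and FW44), and workers of conspecific nests had 13.4, 13.5, 17.2 and 12.3% (FW10, FW25, FW28 and FW47). The groups overlapped: the face-trained F55 was below 3 of the 4 allospecific workers, and FW28 was above F25, F55, F3 and F52. The means were 19.3 ± 3.94% in face-trained foundresses (SD, n = 5), 20.8 ± 5.52% in pattern-trained foundresses, 14.5 ± 0.65% in allospecific workers and 14.1 ± 2.16% in conspecific workers (SD, n = 4 each). Without F55 the face-trained mean was 20.7 ± 2.94%, without F17 the pattern-trained mean was 19.4 ± 5.87%, and without FW28 the conspecific mean was 13.04 ± 0.665%. The 95% Wilson intervals reach at most 0.0256 percentage points to either side and cover counting error only, so the differences between wasps of 1 group are far wider than counting error. Since the shares sum over contigs chosen for their level, no test was made on them.

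**Figure D1:**
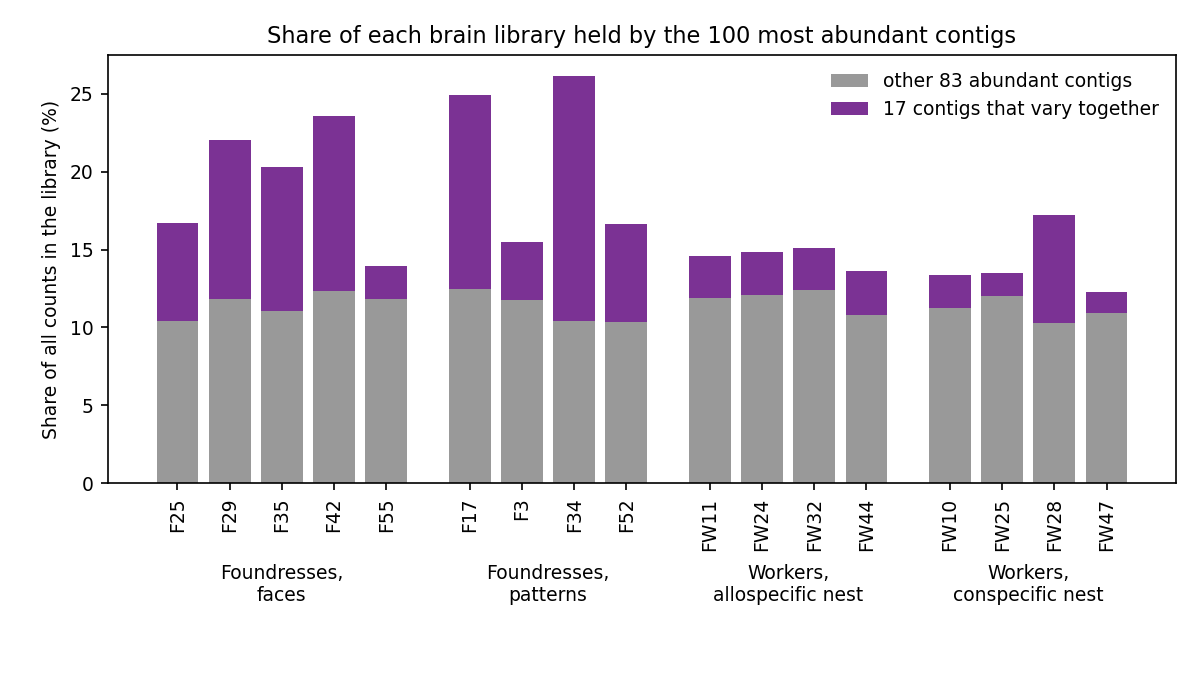
Share of all counts in each of the 17 libraries (y axis, %) held by the 100 most abundant contigs, 1 bar per wasp, with foundresses trained to faces and to patterns left of workers of allospecific and conspecific nests. Purple marks the 17 contigs that vary together and grey the other 83, whose share stays between 10.3 and 12.4% in every wasp, so the differences in bar height follow the purple part, 1.34 to 15.8%.

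Counts were also more concentrated in some foundresses. The number of contigs that together held 50% of a library's counts was 2676 ± 512 in face-trained foundresses (SD, n = 5), 2438 ± 801 in pattern-trained foundresses, 3154 ± 90.9 in allospecific workers and 3285 ± 281 in conspecific workers (SD, n = 4 each), with the extremes of 1537 in F17 and 3539 in FW47. A wasp's own 100 leading contigs included 75 (F17) to 91 (F35) of the 100. Across wasps 35 of the 100 were among the first 100 of every wasp, and 44 when F17 was left out; the lowest place that any of them took in any wasp was 1312. PfusTSAr1.0-014001 led 13 of the 17 libraries, PfusTSAr1.0-043282 led F17 and F34, PfusTSAr1.0-070075 led F52 and PfusTSAr1.0-101667 led F55.

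At the edge of the list the means ran on without a gap. PfusTSAr1.0-085942, PfusTSAr1.0-113852, PfusTSAr1.0-099116, PfusTSAr1.0-028527 and PfusTSAr1.0-080179, at places 96 to 100, averaged 562, 551, 545, 542 and 541 CPM. PfusTSAr1.0-107868, PfusTSAr1.0-045604, PfusTSAr1.0-109749, PfusTSAr1.0-038861 and PfusTSAr1.0-028528, the next 5, averaged 540.0, 525, 521, 515 and 509 CPM. The contig at place 1 averaged 27.6 times the one at place 100, and 38 contigs averaged over 1000 CPM.

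The levels of the 100 were steady in some contigs and spread widely in others. The highest wasp had less than 2 times the lowest wasp's level for 31 contigs, between 2 and 5 times for 44 and more than 5 times for 25, with a median ratio of 2.42. The narrowest ratios were 1.39 for PfusTSAr1.0-096646, 1.42 for PfusTSAr1.0-096649 and 1.44 for PfusTSAr1.0-073396. The widest were 39.4 for PfusTSAr1.0-109459, 26.9 for PfusTSAr1.0-090555 and 26.3 for PfusTSAr1.0-090553. The SD within groups, on the log2 scale, had a median of 0.31 over the 100 contigs and of 0.26 over the next 900 contigs by mean CPM.

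Contigs were grouped by how their log2 CPM varied across the 17 wasps, with average linkage at a Pearson correlation of 0.8 and at least 3 contigs in a group. These correlations use the same levels, of the same 17 libraries, that define the groups, so they describe the groups and are not tests. 10 groups held 55 of the 100 contigs, with 17 in the largest, then 6, 5, 5, 5, 4, 4, 3, 3 and 3, and 45 contigs joined none. Over all pairs of the 100 contigs the median correlation was 0.029.

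The largest group held PfusTSAr1.0-043281, PfusTSAr1.0-043282, PfusTSAr1.0-049826, PfusTSAr1.0-049827, PfusTSAr1.0-049828, PfusTSAr1.0-049830, PfusTSAr1.0-049831, PfusTSAr1.0-061677, PfusTSAr1.0-066105, PfusTSAr1.0-066334, PfusTSAr1.0-066335, PfusTSAr1.0-066336, PfusTSAr1.0-070067, PfusTSAr1.0-070075, PfusTSAr1.0-090553, PfusTSAr1.0-090555 and PfusTSAr1.0-109459. Its pairs correlated with a median of 0.959 and a lowest value of 0.849 across the 17 wasps, with 0.946 after each group's mean was taken off and 0.967 without F17. The identifiers fall into 8 runs of near neighbours, so the group holds fewer separate transcripts than contigs if neighbours are pieces or copies of 1 transcript, which the count table does not tell. 16 of the 25 contigs with more than 5 times the level in the highest wasp belonged to it.

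**Figure D2:**
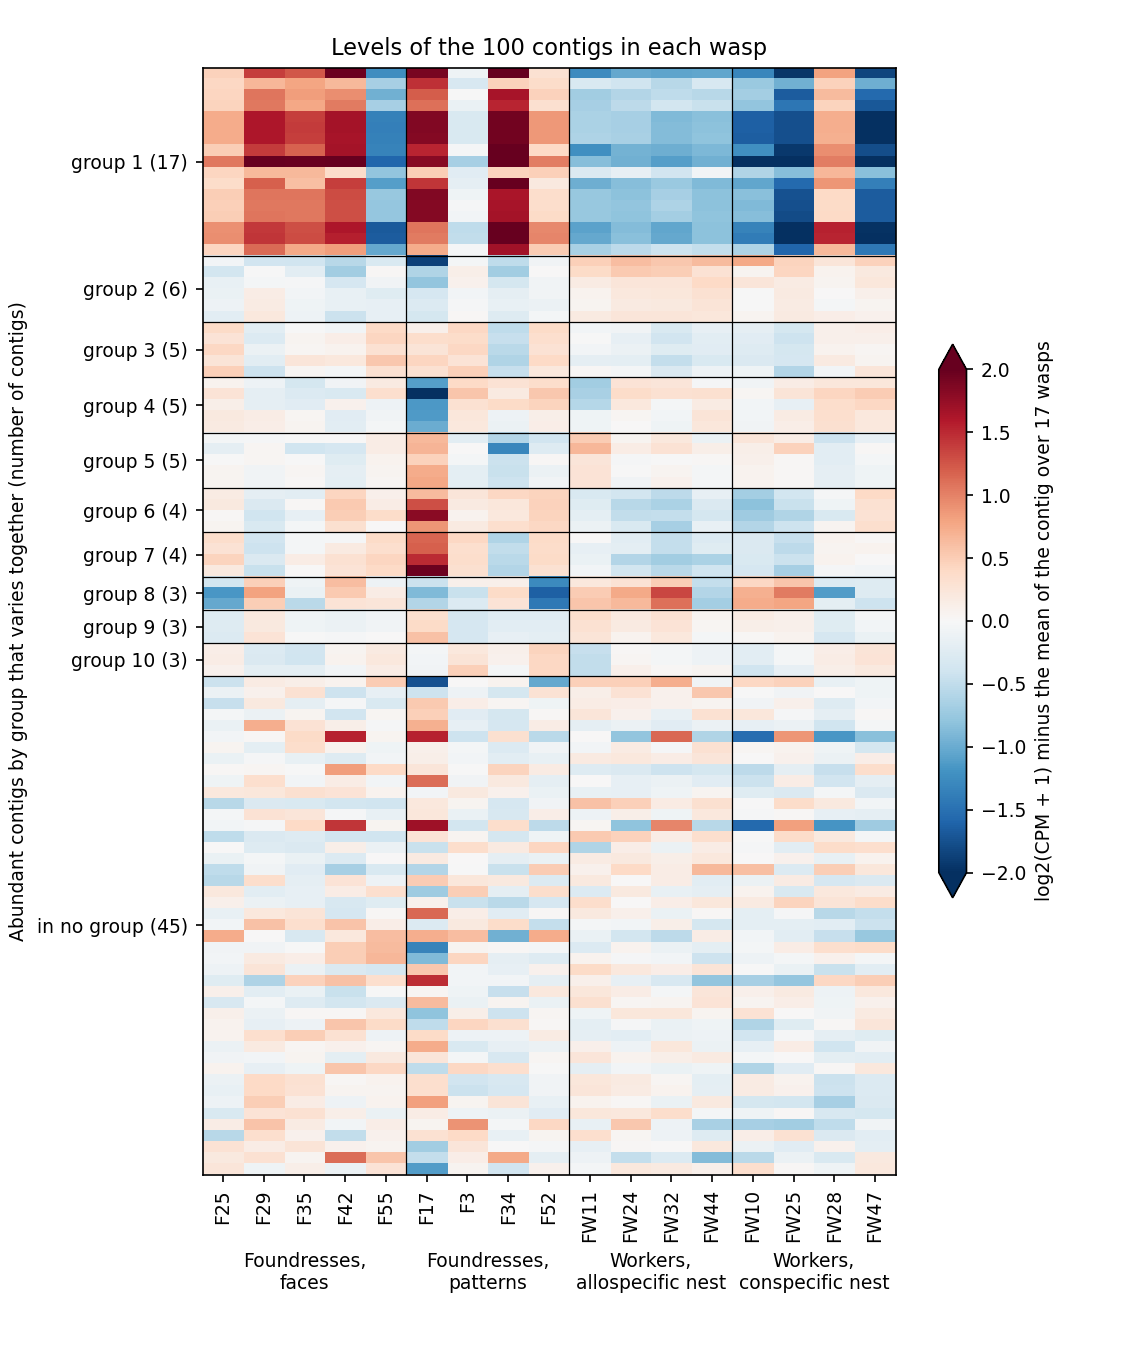
Levels of the 100 contigs (rows, ordered by the groups that vary together) in the 17 wasps (columns, foundresses trained to faces and to patterns left of workers of allospecific and conspecific nests), each as log2(CPM + 1) minus that contig's mean over all wasps, red high and blue low. The block of 17 contigs at the top is above its mean in 7 of the 9 foundresses and in the worker FW28, near it in F3, and below it in F55 and the other 7 workers.

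These 17 contigs took 6.32, 10.3, 9.26, 11.2 and 2.12% of all counts in the face-trained foundresses F25, F29, F35, F42 and F55. They took 12.5, 3.75, 15.8 and 6.28% in the pattern-trained foundresses F17, F3, F34 and F52. In allospecific workers the share was 2.69, 2.78, 2.66 and 2.79% (FW11, FW24, FW32 and FW44), and in conspecific workers it was 2.08, 1.49, 6.93 and 1.34% (FW10, FW25, FW28 and FW47). 8 of the 9 foundresses were above 7 of the 8 workers; F55 was among the workers and FW28 among the foundresses. The share averaged 7.84 ± 3.69% in face-trained foundresses (SD, n = 5), 9.57 ± 5.52% in pattern-trained foundresses, 2.73 ± 0.065% in allospecific workers and 2.96 ± 2.67% in conspecific workers (SD, n = 4 each). It was 9.26 ± 2.12% in face-trained foundresses without F55, 8.6 ± 6.33% in pattern-trained foundresses without F17 and 1.64 ± 0.39% in conspecific workers without FW28. The pattern-trained foundresses of May (F17 and F3) and of June (F34 and F52) each held a high and a low wasp, and the allospecific workers of July and August did not separate. The highest share was 11.7 times the lowest.

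The other 83 contigs held 11.5 ± 0.749% in face-trained foundresses (SD, n = 5), 11.2 ± 1.02% in pattern-trained foundresses, 11.8 ± 0.695% in allospecific workers and 11.1 ± 0.712% in conspecific workers (SD, n = 4 each), with all 17 wasps between 10.3 and 12.4%. The 17 contigs made up between 10.9 and 60.2% of the counts of the 100 contigs in a wasp.

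PfusTSAr1.0-043282, the member of the group with the highest mean, had 7400.3, 14040, 12729, 21023 and 2273 CPM in the face-trained foundresses F25, F29, F35, F42 and F55, and 19991, 5061, 35897 and 6650.0 CPM in the pattern-trained foundresses F17, F3, F34 and F52. It had 2255, 2637, 2578 and 2631 CPM in the allospecific workers FW11, FW24, FW32 and FW44, and 2174, 1394, 9438 and 1501 CPM in the conspecific workers FW10, FW25, FW28 and FW47. Every pattern-trained foundress was above all workers but FW28, F55 lay inside the range of the workers, and F34 had 25.7 times the level of FW25.

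PfusTSAr1.0-109459, the contig with the widest spread, had 3488, 6622, 6607, 8263 and 554 CPM in the face-trained foundresses and 5904, 1050.0, 6913 and 3410.2 CPM in the pattern-trained foundresses, in the same order of wasps. It had 919.9, 854, 774 and 856 CPM in allospecific workers and 388, 411, 3412 and 209.5 CPM in conspecific workers. F55 and FW28 again lay in the range of the other caste. Apart from F55 no foundress was below an allospecific worker.

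PfusTSAr1.0-049830, which followed the rest of the group most closely, had 7684, 11878, 10170, 10757 and 2908 CPM in face-trained foundresses and 13157, 5626, 17738 and 7804 CPM in pattern-trained foundresses. It had 3504, 3786, 3988 and 3856 CPM in allospecific workers and 3553, 1783, 8794 and 1934 CPM in conspecific workers. PfusTSAr1.0-070067 had the narrowest spread of the 17, between 1372 CPM in FW25 and 3919 CPM in FW28, and here the worker FW28 was above every foundress.

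**Figure D3:**
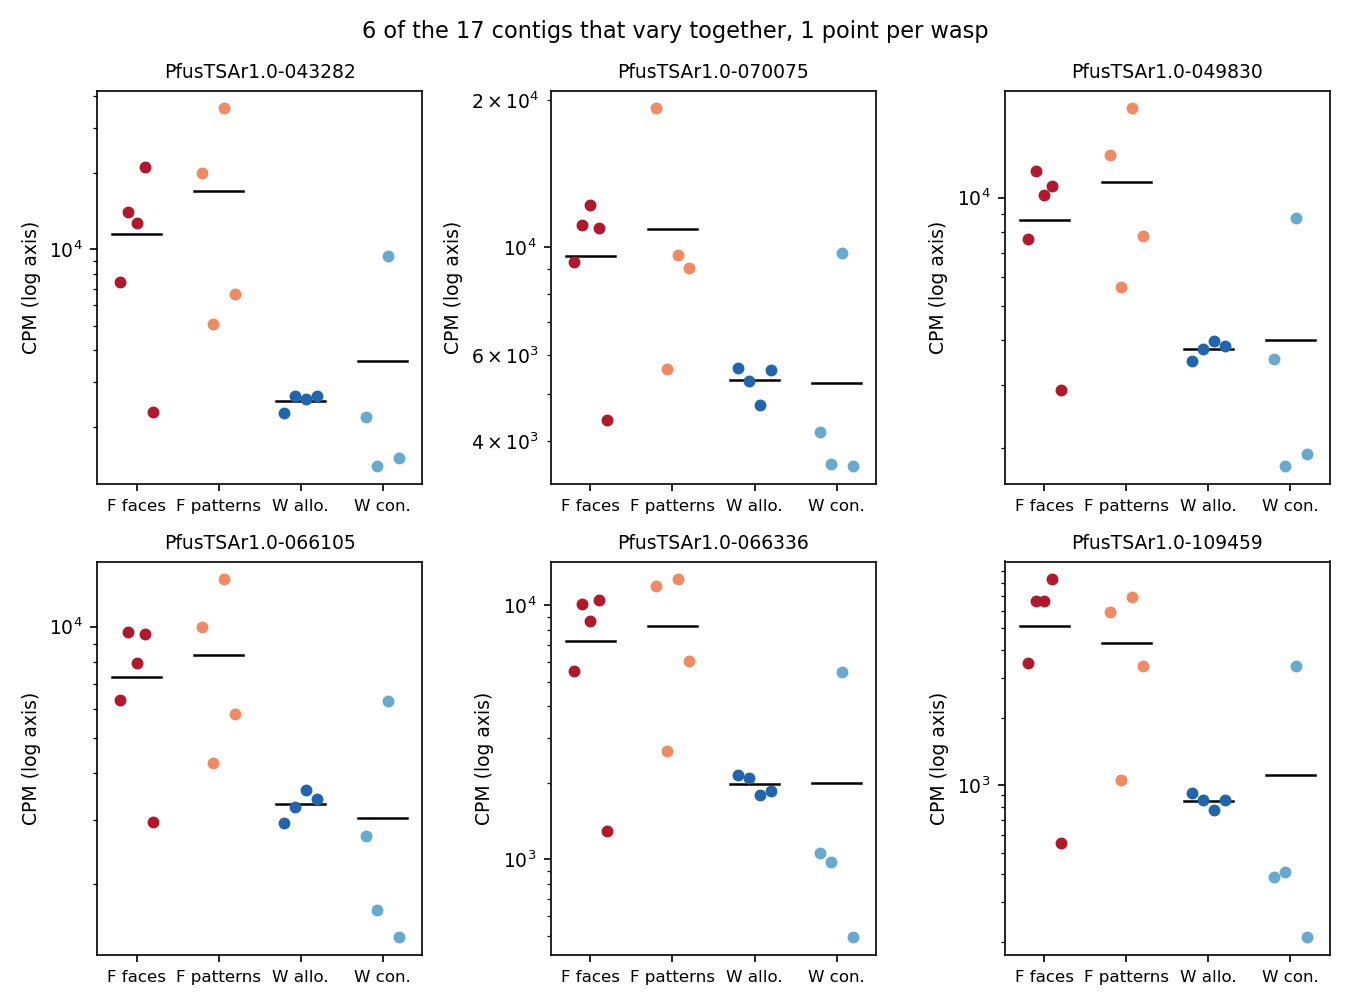
CPM (log axes) of 6 contigs of the group of 17, 1 point per wasp, with the foundress groups (F, faces then patterns) left of the worker groups (W, allospecific then conspecific nests); the black line is the group mean. In PfusTSAr1.0-043282 the allospecific workers lie between 2255 and 2637 CPM, while the low face-trained point is F55 with 2273 CPM and the high conspecific point is FW28 with 9438 CPM.

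Other contigs of the 10 highest means behaved differently. PfusTSAr1.0-014001 had 10962, 19800, 13359, 21865 and 13246 CPM in face-trained foundresses and 10584, 15271, 15255 and 5877 CPM in pattern-trained foundresses. Allospecific workers had 16449, 17394, 20039 and 10205 CPM and conspecific workers 18921, 20863, 11821 and 11866 CPM. The 4 groups overlapped and the lowest wasp was the foundress F52. PfusTSAr1.0-035850 and PfusTSAr1.0-037729 varied with it as a group of 3, and PfusTSAr1.0-035850 ranged between 262 CPM in F52 and 2074 CPM in FW32.

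PfusTSAr1.0-101667, second by mean, had 7319, 11076, 10680, 10426 and 13993 CPM in face-trained foundresses and 2949, 9914, 10435 and 4874 CPM in pattern-trained foundresses, against 13770, 13813, 16438 and 9460.4 CPM in allospecific workers and 13190, 13548, 8941 and 9313 CPM in conspecific workers. F17 was lowest and all groups overlapped. PfusTSAr1.0-106249 was steadier, with 1.93 times between the lowest wasp, F42, and the highest, FW44.

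The group of 6 (PfusTSAr1.0-110031, PfusTSAr1.0-097636, PfusTSAr1.0-101274, PfusTSAr1.0-073395, PfusTSAr1.0-073396 and PfusTSAr1.0-085942) held a smaller share in foundresses than in workers. The median correlation of its pairs was 0.847 over all wasps and 0.642 once group means were taken off, and it stayed whole in 9 of 24 other ways of grouping. It held 0.416 ± 0.0389% of the counts in face-trained foundresses (SD, n = 5), 0.393 ± 0.091% in pattern-trained foundresses, 0.606 ± 0.0236% in allospecific workers and 0.556 ± 0.0347% in conspecific workers (SD, n = 4 each). Its lowest value was 0.281% in F17.

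The 2 groups of 4 (PfusTSAr1.0-078357, PfusTSAr1.0-107217, PfusTSAr1.0-032885 and PfusTSAr1.0-078353, and PfusTSAr1.0-069615, PfusTSAr1.0-055867, PfusTSAr1.0-039265 and PfusTSAr1.0-098826) were both highest in F17, at 1.13 and 1.43% of its counts. The first of these held 0.609 ± 0.115% in face-trained foundresses (SD, n = 5), 0.826 ± 0.207% in pattern-trained foundresses, 0.451 ± 0.0485% in allospecific workers and 0.519 ± 0.167% in conspecific workers (SD, n = 4 each). The second held 0.618 ± 0.124% in face-trained foundresses (SD, n = 5), 0.826 ± 0.438% in pattern-trained foundresses, 0.471 ± 0.0578% in allospecific workers and 0.513 ± 0.0927% in conspecific workers (SD, n = 4 each). Without F17 the pattern-trained means were 0.725 ± 0.0577% for the first and 0.623 ± 0.202% for the second (SD, n = 3).

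Of the groups of 5, 1 (PfusTSAr1.0-049137, PfusTSAr1.0-049166, PfusTSAr1.0-107219, PfusTSAr1.0-046649 and PfusTSAr1.0-046648) rested on F17: the median correlation of its pairs was 0.898 over all wasps and 0.563 without F17. PfusTSAr1.0-049166 had 158 CPM in F17, where the other 3 pattern-trained foundresses had 1549.8, 1195 and 1535 CPM (F3, F34 and F52). Face-trained foundresses had 848 to 1322 CPM, allospecific workers 671 to 1359 CPM and conspecific workers 1084 to 1498 CPM for the same contig. The group around PfusTSAr1.0-064449 held its lowest share, 0.529%, in F34 and its highest, 0.988%, in F3, and the group around PfusTSAr1.0-081775 its lowest, 0.218%, in F34 and its highest, 0.533%, in F17. The remaining groups of 3, around PfusTSAr1.0-038863 and PfusTSAr1.0-080095, held 0.239 to 0.4% and 0.17 to 0.318% of the counts.

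Neighbouring identifiers often carried nearly the same profile. When identifiers at most 10 apart were joined, 57 of the 100 contigs fell into 24 runs of 2 to 5 and 43 stood alone, which makes 67 separate units. Of the 33 neighbouring pairs, 21 correlated above 0.9, with a median of 0.972, and in 13 pairs the ratio of the 2 levels varied by less than 1.2 times across the 17 wasps. PfusTSAr1.0-066334, PfusTSAr1.0-066335 and PfusTSAr1.0-066336 had 1279, 1284 and 1295 CPM in F55 and 12527, 12615 and 12660 CPM in F34, and the ratio between neighbours of this run stayed between 0.977 and 1.02 in all 17 wasps. How reads fitting several contigs were divided is not known from the sources used here, so whether such contigs share reads was not tested, and they are not counted as separate lines of evidence. Among contigs in no group of 3 or more, PfusTSAr1.0-112833 and its neighbour PfusTSAr1.0-112840, picked out after their values were seen, correlated at 0.996 and were high in wasps of every group. The first had 1333, 1404, 1811, 4034 and 1429 CPM in face-trained foundresses and 4010.2, 1041, 1730.0 and 955 CPM in pattern-trained foundresses, against 1393, 797, 3076 and 915 CPM in allospecific workers and 479.9, 2541, 613 and 776 CPM in conspecific workers. F42, F17, FW32 and FW25, 1 wasp of each group, were the highest of their groups.

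A near identifier did not always mean a like profile: PfusTSAr1.0-107217 and PfusTSAr1.0-107219 correlated at -0.249, and F17 had 2039.5 CPM of the first and 460.3 CPM of the second.

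Face-trained and pattern-trained foundresses were compared to ask whether the learned stimulus went with a difference in these RNAs. The test throughout was edgeR's quasi-likelihood test fitted on all 61002 contigs and all 17 wasps, with Benjamini-Hochberg adjustment over all contigs and a threshold of 0.05. None of the 100 contigs passed (adjusted p of 0.676 or more), and neither did any other contig, 0% of all in either direction. Before adjustment 10 of the 100 had a p under 0.05 by that test, where 7.14% of all contigs had such a p. DESeq2 called 0 of the 100, and 22 of the 16789 contigs that it gave an adjusted p, 0.131%. The log2 fold changes of the 100 were positive in 28 and negative in 72, with a median of -0.18, beside -0.03 over all contigs tested. In no contig of the 100 were the 2 groups without overlap in CPM, against 1.47% of all contigs (1.09% higher and 0.38% lower in face-trained foundresses).

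The contigs nearest the threshold in each direction did not pass. PfusTSAr1.0-102942 averaged 782 ± 159 CPM in face-trained foundresses (SD, n = 5) and 572 ± 212 CPM in pattern-trained foundresses (SD, n = 4), a log2 fold change of 0.41 (SE 0.18, adjusted p = 0.686). PfusTSAr1.0-074146 had 732, 886, 876, 837 and 820.1 CPM in face-trained foundresses and 1256, 1123, 852 and 1030.2 CPM in pattern-trained foundresses, a log2 fold change of -0.45 (SE 0.17, adjusted p = 0.676). In the group of 17 the log2 fold changes lay between -0.84 and 0.13 with a median of -0.45, and their median was -0.08 without F17.

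The nest comparison asked whether living with another species went with a difference. By edgeR's quasi-likelihood test none of the 100 passed between allospecific and conspecific workers, where 0.0115% of all contigs did (0.0082% higher and 0.00328% lower), and each of the 100 had an adjusted p of 1. Before adjustment 1 of the 100 had a p under 0.05 by that test, against 2.65% of all contigs. DESeq2 called 0 of the 100, and 36 of the 85922 contigs that it gave an adjusted p, 0.0419%. In 6 contigs every allospecific worker was above every conspecific worker, where 1.17% of all contigs did so, and in 0 was every allospecific worker lower, where 1.8% did so (2.96% in either direction). None of these 6 passed the test. They include the neighbours PfusTSAr1.0-096646 and PfusTSAr1.0-096649, which correlated at 0.972 and are not separate lines of evidence.

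The contig with the smallest p was PfusTSAr1.0-089829, with 824, 735, 694 and 759 CPM in allospecific workers and 629, 579, 467 and 549 CPM in conspecific workers. The 2 groups did not overlap, and the log2 fold change was 0.47 (SE 0.21, adjusted p = 1). PfusTSAr1.0-106249 also did not overlap, with 7446, 8362, 7309.5 and 9968 CPM in allospecific workers and 6872, 6549.9, 6939 and 6481 CPM in conspecific workers, a log2 fold change of 0.33 (SE 0.18, adjusted p = 1). In the lower direction PfusTSAr1.0-111231 had the smallest p, with a log2 fold change of -0.31 (SE 0.21, adjusted p = 1). The group of 17 had a median log2 fold change of -0.07 over all wasps and 0.69 without FW28, with an adjusted p of 1 for all 17 contigs in both fits.

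Face-trained foundresses were set against the 8 workers, who learned the same stimulus. By edgeR's quasi-likelihood test 5 of the 100 passed, 3 higher and 2 lower in the foundresses, where 2.45% of all contigs passed (1.4% higher and 1.04% lower). Among the next 900 contigs by mean CPM the share was 7.11%. The median log2 fold change was 0.23 over the 100 and 0.0045 over all contigs tested. The foundresses lay wholly above the workers in 1 contig, PfusTSAr1.0-099108, and wholly below in 5, PfusTSAr1.0-110031, PfusTSAr1.0-074146, PfusTSAr1.0-074150, PfusTSAr1.0-097636 and PfusTSAr1.0-101274, where 0.921% and 2.59% of all contigs did so, 3.51% in either direction. PfusTSAr1.0-074150 and PfusTSAr1.0-097636 are named here after their values were seen. The neighbours PfusTSAr1.0-074146 and PfusTSAr1.0-074150 correlated at 0.997 and are not separate lines of evidence.

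Of the lower contigs, PfusTSAr1.0-110031 had 1209, 969, 962, 857 and 1017 CPM in the face-trained foundresses F25, F29, F35, F42 and F55. It had 1752, 1946, 1839 and 1961 CPM in the allospecific workers FW11, FW24, FW32 and FW44, and 2130.5, 1724, 1493 and 1737 CPM in the conspecific workers FW10, FW25, FW28 and FW47. No foundress reached any worker, and the contig fell with a log2 fold change of -0.78 (SE 0.19, adjusted p = 0.0342). PfusTSAr1.0-074146, whose foundress values stand above, had 1613, 1504, 1207 and 1350.5 CPM in allospecific workers and 1070.0, 1389, 1237 and 1039.8 CPM in conspecific workers. It also had no overlap and fell by 0.56 on the log2 scale (SE 0.15, adjusted p = 0.0496). PfusTSAr1.0-110031 passed in 12 of 24 alternatives, with adjusted p up to 0.117, and PfusTSAr1.0-074146 in 7 of 24, with adjusted p up to 0.11.

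Of the higher contigs, PfusTSAr1.0-099108 had 1343, 1361, 1449, 1411 and 1227 CPM in face-trained foundresses, against 1051, 1042, 1092 and 1207 CPM in allospecific workers and 986, 955, 1131 and 952 CPM in conspecific workers. The lowest foundress, F55, stood just above the highest worker, FW44, and the log2 fold change was 0.45 (SE 0.11, adjusted p = 0.0453). PfusTSAr1.0-028527 had 587, 632, 529.5, 1103 and 751 CPM in face-trained foundresses, against 477, 367, 424 and 278 CPM in allospecific workers and 352, 471, 415 and 583 CPM in conspecific workers. F35 was below FW47, the worker mean of 421 CPM was under the mean of place 100, and the log2 fold change was 0.86 (SE 0.21, adjusted p = 0.0408). PfusTSAr1.0-109459, of the group of 17, rose with a log2 fold change of 2.49 (SE 0.65, adjusted p = 0.0486). PfusTSAr1.0-099108 passed in 10 of 24 alternatives, PfusTSAr1.0-028527 in 13 and PfusTSAr1.0-109459 in 12, with adjusted p up to 0.131, 0.177 and 0.153.

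**Figure D4:**
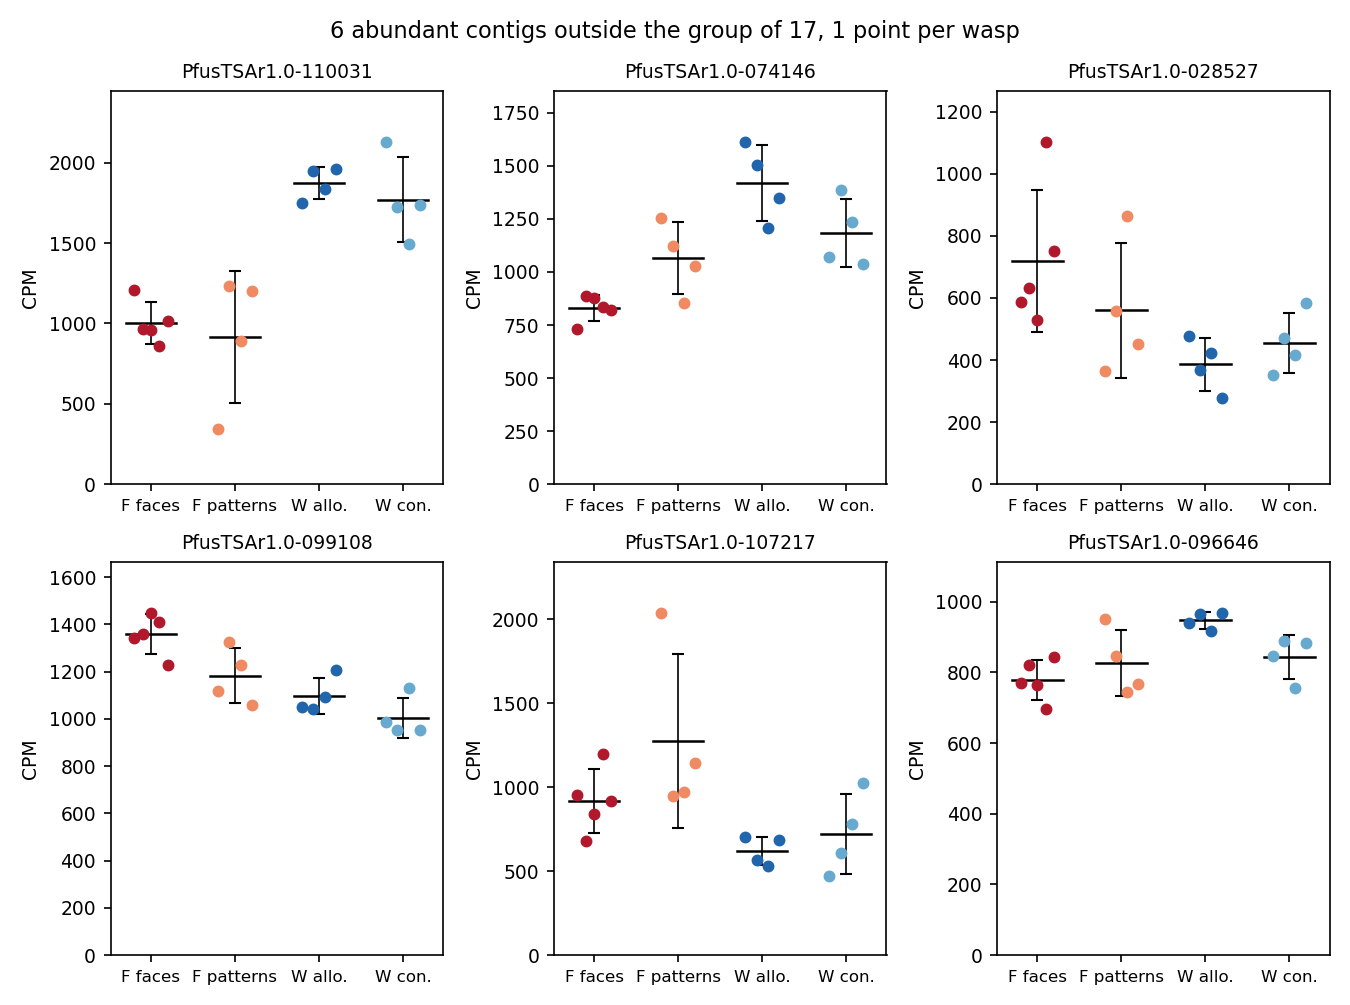
CPM (linear axes that start at 0) of 6 contigs outside the group of 17, 1 point per wasp, with the mean and SD of each group; the foundress groups (F) stand left of the worker groups (W). PfusTSAr1.0-110031 reaches at most 1232 CPM in a foundress and at least 1493 CPM in a worker, while PfusTSAr1.0-096646 has 1.39 times between its lowest and highest wasp.

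In the group of 17 all log2 fold changes of face-trained foundresses over workers were positive, between 0.67 and 2.49 with a median of 1.61, but 1 of the 17 passed. Of these 17, 7 averaged less in the workers than the contig at place 100 did over all wasps. In face-trained foundresses 0 of the 17 averaged less than that. The direction and the numbers past the threshold are therefore partly set by the choice of contigs, and nothing is read from them. Without FW28 all 17 passed by the same edgeR test, with a median of 1.99 and adjusted p between 0.00388 and 0.0352. In that fit 3.77% of all contigs passed. Without F55 12 passed, beside 2.87% of all contigs. Without both wasps 17 passed with a median of 2.22, beside 4.42% of all contigs. Over the 17 fits that left out 1 wasp each, between 0 and 17 of them passed, with medians between 1.44 and 1.99. None of the 17 contigs passed in 11 of these fits, those without F25, F29, F35, F42, FW11, FW24, FW32, FW44, FW10, FW25 or FW47. In these 11 fits 0.65 to 1.85% of all contigs passed. FW28 and F55 were singled out after their values were seen.

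Pattern-trained foundresses were set against the same 8 workers, so this comparison and the previous one share their workers and their values are given side by side without a measure of likeness. By edgeR's quasi-likelihood test 27 of the 100 passed, 26 higher and 1 lower in the foundresses, where 7.02% of all contigs passed (4.9% higher and 2.12% lower). Among the next 900 contigs by mean CPM 14.9% passed, 5% higher and 9.89% lower. The rule averaged over all wasps, so a contig could enter through the foundresses alone: 9 of the 26 higher contigs averaged less in the workers than the contig at place 100 did over all wasps, and 0 of the 26 averaged less than that in pattern-trained foundresses. The excess of higher calls over these shares is therefore partly set by the choice of contigs, and nothing is read from it. The 26 higher contigs were 18 separate units by identifier, and 14 of them belonged to the group of 17. The median log2 fold change was 0.33 over the 100 and 0.02 over all contigs tested. The pattern-trained foundresses lay wholly above the workers in 0 contigs and wholly below in 3 (PfusTSAr1.0-110031, PfusTSAr1.0-085942 and PfusTSAr1.0-073395, the last named after its values were seen), where 1.23% and 3.63% of all contigs did so, 4.86% in either direction.

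The group of 17 had positive log2 fold changes throughout, between 0.74 and 2.69 with a median of 2.12. Of these 17, 7 averaged less in the workers than the contig at place 100 did over all wasps. In pattern-trained foundresses 0 of the 17 averaged less than that. Their direction and the numbers past the threshold are therefore partly set by the choice of contigs, and nothing is read from them. PfusTSAr1.0-049826, which averaged 361 CPM in workers and so is among the 100 through its level in foundresses, had the smallest p, with 2123, 585, 1863 and 757 CPM in the pattern-trained foundresses F17, F3, F34 and F52. The same contig had 352, 345, 389 and 337 CPM in allospecific workers and 322, 175, 777 and 188 CPM in conspecific workers. FW28, with 777 CPM, was above F3 and F52, and every other worker was below all 4 foundresses. Its log2 fold change was 2.11 (SE 0.44, adjusted p = 0.0106). PfusTSAr1.0-049827 and PfusTSAr1.0-049828, near-copies of this profile, rose by 2.12 and 2.11 on the log2 scale with adjusted p of 0.0108 and 0.011. PfusTSAr1.0-043282 rose by 2.69 (SE 0.59, adjusted p = 0.0135) and PfusTSAr1.0-109459 by 2.36 (SE 0.67, adjusted p = 0.0422). With 1 wasp left out, between 5 and 17 of the 17 passed. All 17 passed without FW28, with a median of 2.76, where 7.96% of all contigs passed. Without F17 6 passed, with a median of 1.95, and 5.04% of all contigs. Without F34 5 passed, with a median of 1.73, and 7.6% of all contigs. Without FW10 or FW25 8 passed, and 3.95 or 4.23% of all contigs.

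All 8 contigs of the 2 groups of 4 were also among the 26 higher contigs, with log2 fold changes between 0.85 and 1.40, where 4.9% of all contigs passed higher. The groups were formed on these same levels, so the 8 are not separate lines of evidence. PfusTSAr1.0-098826 averaged 501 CPM in workers, under the mean of place 100, and so is among the 100 through its level in foundresses. PfusTSAr1.0-107217 had 2039.5, 947, 972 and 1142 CPM in pattern-trained foundresses, against 704, 565, 534 and 684 CPM in allospecific workers and 471, 609.8, 783 and 1028 CPM in conspecific workers. FW47 overlapped the foundresses, and the log2 fold change was 1.14 (SE 0.25, adjusted p = 0.0125). PfusTSAr1.0-055867 had 4761, 2641, 1474 and 2674 CPM in pattern-trained foundresses, against 1856, 1813, 1503 and 1759 CPM in allospecific workers and 1709, 1442, 2168 and 2195 CPM in conspecific workers. Here F34 was below 7 of the 8 workers, and the log2 fold change was 0.89 (SE 0.25, adjusted p = 0.038). Without F17 the log2 fold changes of the 8 lay between 0.37 and 0.69, with 0.66 for PfusTSAr1.0-032885, 0.38 for PfusTSAr1.0-055867 and 0.41 for PfusTSAr1.0-098826, which had 1.40, 0.89 and 1.36 with F17. Those past the threshold of the same edgeR test without F17 were PfusTSAr1.0-078357, with an adjusted p of 0.039, and PfusTSAr1.0-107217, with 0.0446. In that fit 5.04% of all contigs passed. In face-trained foundresses against workers the same 8 had log2 fold changes of 0.30 to 0.62 and none passed.

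The lower contig was PfusTSAr1.0-110031, with 345, 1232, 891 and 1202 CPM in pattern-trained foundresses. These values were all below the workers' lowest, 1493 CPM in FW28, and the contig fell by 0.89 on the log2 scale (SE 0.20, adjusted p = 0.0156). The fall was 0.65 without F17, the lowest of the 4, with an adjusted p of 0.00635. Leaving out F17 gave 11 calls among the 100 in place of 27, 9 higher and 2 lower, with 5.04% of all contigs called, and gave 29 in place of 5 (22 higher and 7 lower, with 9.85% of all contigs called) for face-trained foundresses against workers. F17 is in neither group of that comparison and enters it only through the filter, the scaling and the shared estimate of spread.

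**Figure D5:**
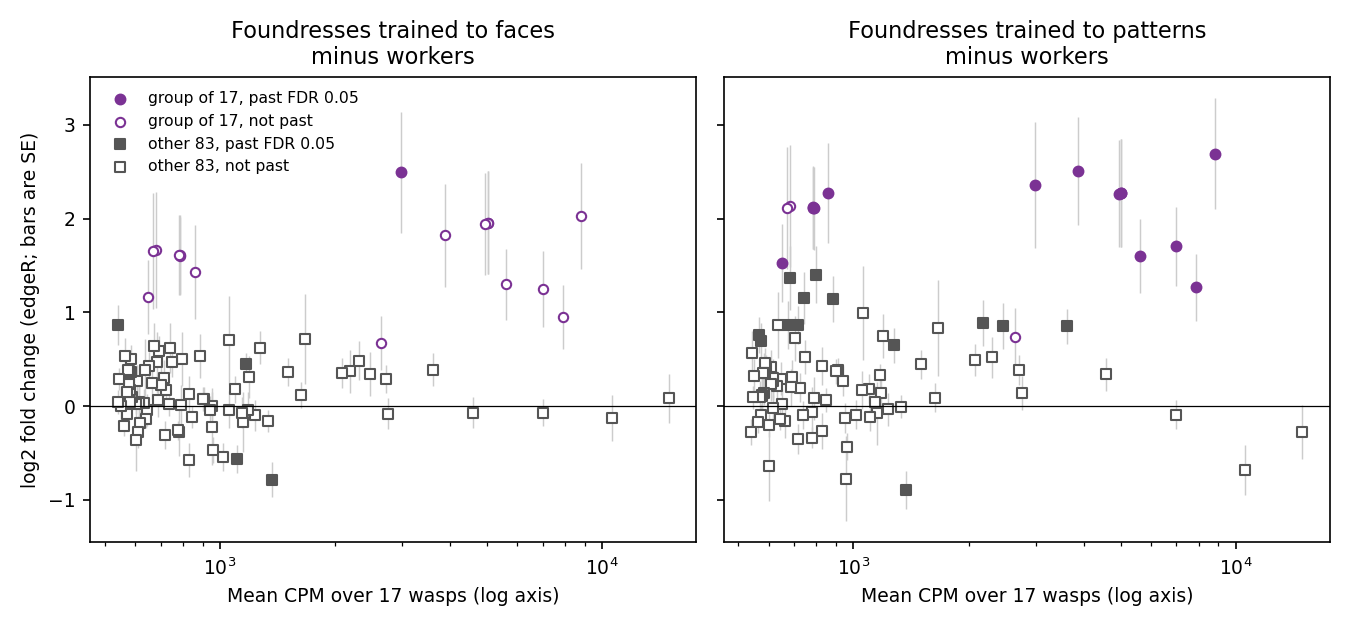
Log2 fold change (y axis) of each of the 100 contigs against its mean CPM (x axis, log scale), left for foundresses trained to faces over all workers and right for foundresses trained to patterns over the same workers; purple circles are the group of 17 and grey squares the other 83, filled where the adjusted p was under 0.05, with bars of 1 SE. The group of 17 lies above 0 in both panels, with 1 contig past the threshold on the left and 14 on the right. Its place above 0 is partly set by the choice of contigs, since 7 of the 17 averaged less in workers than the contig at place 100.

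With library totals in place of edgeR's scaling factors the median of all contigs moved by -0.15 (log2) for pattern-trained foundresses over workers, and by less than 0.1 in the other 3 comparisons. Under that scaling the pattern-trained comparison called 18 of the 100 higher and 2 lower, with 5.81% of all contigs called. The scaling factors ran between 0.785 in F17 and 1.10 in F55, and the part of the composition of these libraries in the results was not tested.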

How the data were processed

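Brain RNA of 17 single wasps was sequenced, and the values used are the whole-number read counts per contig that the authors deposited as 1 table. Per the submitters' processing notes, Trimmomatic 0.32, Bowtie2 and eXpress were used; their settings, the assembly and how reads fitting more than 1 contig were divided were not given in the sources used here. The labels' protocols name an Illumina TruSeq RNA kit, a kind of kit that enriches polyadenylated RNA.

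From the counts, CPM was computed over column totals, and every column matched 1 wasp (0 columns had none). The members and lists were chosen with earlier results of these data known. Totals were 7694420 to 20360420 counts, and Wilson intervals (95%) cover counting error only. A chi-square test per degree of freedom gave at least 6.69 for each of the 28 pairs of wasps within a group, so no library was a copy of another of its group; pairs between groups were not tested.

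Contigs were filtered with edgeR 4.0.16 (R 4.3.3), scaled by its TMM method and fitted with the 4 groups in its quasi-likelihood test, leaving 13 residual degrees of freedom; workers of both nests were averaged with equal weight against foundresses. P-values were adjusted by Benjamini-Hochberg over 61002 contigs. The code was tested on simulated data. Correlations used log2(CPM + 1). Contigs were named if they were among the 10 highest means, nearest the threshold or past it in a comparison (up to 3 per direction), central in a group that varies together, at the extremes of spread, or at the edge of the 100; the others in the text list a group, lead it by level, or are said to be chosen after their values were seen. Alternatives were other scalings, no filter, DESeq2 1.42.0, only the groups compared, collection month as a covariate where it could be fitted, each wasp left out, and other cutoffs.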

Additional observations from a re-analysis of the deposited data

Results flagged for a closer look

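The 220 sets of 4 or 5 wasps were made from the library measures and from the contigs picked by the naming rule above, not from every contig listed. In 17 of them a wasp was far from the rest of its group relative to the range. Chance alone gives about 11. Many of the sets are contigs of the same group, so they are not separate observations.

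Among conspecific workers, FW28 stood apart in the share held by the 17 contigs, with 6.93% against 1.34 to 2.08% in the other 3. Not all 17 contigs were in the sets, and among those that were, FW28 stood apart in 8. PfusTSAr1.0-043282 had 9439 CPM (others 1394 to 2174) and PfusTSAr1.0-070075 had 9697 CPM (3552 to 4175). PfusTSAr1.0-066336 had 5469 CPM (494 to 1064), PfusTSAr1.0-066335 had 5478 CPM (488 to 1060.0) and PfusTSAr1.0-066334 had 5374 CPM (499 to 1042). The other 3 were PfusTSAr1.0-109459 with 3412 CPM (209.5 to 411), PfusTSAr1.0-090553 with 1214 CPM (96.8 to 159) and PfusTSAr1.0-090555 with 1237 CPM (97.2 to 168). Contigs of the 17 that were in no set were also highest in FW28 among these workers. FW28 had 4702.5 CPM of PfusTSAr1.0-043281 (others 647 to 1057) and 845 CPM of PfusTSAr1.0-049831 (179 to 351). It had 1108 CPM of PfusTSAr1.0-061677 (203 to 291) and 3919 CPM of PfusTSAr1.0-070067 (1372 to 1631).

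Among pattern-trained foundresses, F17 had 0.3998% of its counts in the group around PfusTSAr1.0-038863, against 0.239 to 0.26% in the other 3. F17 also had 252.0 CPM of PfusTSAr1.0-111231 (others 622 to 664) and 756 CPM of PfusTSAr1.0-038861, a contig just outside the 100 (others 425 to 454). F34 had 1484 CPM of PfusTSAr1.0-064449 (others 2582 to 2646), and F3 had a total of 7694420 counts, or 7.69 in units of 1e6 (others 14.9 to 15.8).

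Among allospecific workers, FW11 had 2255 CPM of PfusTSAr1.0-043282 (others 2578 to 2637) and 671 CPM of PfusTSAr1.0-049166 (others 1302 to 1359). Among face-trained foundresses, F29 had 639 CPM of PfusTSAr1.0-073396 (others 507 to 535).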

How the results depend on the processing

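No abundant contig was called between face-trained and pattern-trained foundresses, or between allospecific and conspecific workers, in any of the 25 alternatives run for each. For face-trained foundresses against workers the 5 calls became 10 with scaling on the totals of the other contigs (2.74% of all contigs called), 20 with DESeq2 (4.54%), 21 without the filter (1.3%), 31 with only the groups compared (10.3%) and 20 without FW28 and F55 (4.42%), a choice made after seeing the data; 2.45% of all contigs were called as reported. Leaving out 1 wasp gave 0 to 29 calls: 29 without F17 (9.85% of all contigs), 20 without FW28 (3.77%), 16 without F55 (2.87%), 2 without F25 (1.85%), 1 without FW47 or FW11, and 0 without any of F29, F35, F42, FW10, FW25, FW24, FW32 and FW44, where 0.65 to 1.4% of all contigs were called. For pattern-trained foundresses against workers the 27 calls became 17 with only the groups compared (3.69% of all contigs, against 7.02% as reported), and 11 to 31 with 1 wasp left out, with 11 without F17 (5.04%) and 15 without FW10 (3.95%) or FW25 (4.23%). The cause of these changes was not tested. The 5 calls of face-trained foundresses lost the threshold in 66 of 120 values, and none changed direction. The 4 named calls of pattern-trained foundresses kept it in all 24 alternatives. These were the 3 higher calls with the smallest p, near-copies of 1 profile, and the only lower call. Of all 27 calls, 10 kept the threshold without F17, and 15 without FW10 or without FW25. All 17 contigs of the largest group stayed together in all 24 ways of grouping, as did the 2 groups of 4; the group of 6 was whole in 9 of 24 and in 6 of 17 with 1 wasp left out, the group around PfusTSAr1.0-049166 in 11 and that around PfusTSAr1.0-081775 in 18 of 24, and the group around PfusTSAr1.0-064449 in 23. The number of contigs in groups stayed within 1.5 times. 69 of the 100 were among the first 150 of every wasp, against 35 among the first 100. Every member had at least 1611 counts in every wasp. No paired analysis was possible because the libraries come from 17 animals and no label pairs a wasp with another.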
